A study of Saccharomyces cerevisiae with 4 samples.

Results

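The 10 genes described here encode the uptake and breakdown of allantoin and urea in budding yeast (Saccharomyces cerevisiae) and the regulators named for that pathway: DAL1, DAL2, DAL3, DAL4, DAL5, DAL80, DAL81, DAL82, DUR3 and DUR1,2. They were chosen by name, with earlier results of these data known. All 10 were found among the 6459 gene rows, with DUR1,2 matched through its systematic name YBR208C. RNA was sequenced from 4 cultures of 1 strain, ESS1-AID in the BY4741 background, grown in rich YPD medium to mid-log phase and then given DMSO (2 libraries) or 2 mM IAA, the auxin indole-3-acetic acid (2 libraries), for 3 h. Both groups carried HIS3::ADH1-OsTIR19Myc, which supplies OsTIR1, an auxin receptor from rice, and the allele ESS1AID 71-114-6Flag::hphB, in which the Ess1 prolyl isomerase, an enzyme acting on the tail of RNA polymerase II, is fused to an auxin-inducible degron that marks the protein for destruction when auxin is present. The comparison asks how transcript levels differ after auxin in this strain, and no culture without the degron was among the samples, so loss of Ess1 and other effects of IAA cannot be told apart. Ess1 protein was not measured here, and the submitters describe the libraries as biological replicates.

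Allantoin is a nitrogen-rich product of purine breakdown that yeast can use when better nitrogen sources run out. The allantoinase Dal1 opens it to allantoate, the allantoicase Dal2 splits allantoate to ureidoglycolate and urea, and the lyase Dal3 releases glyoxylate and more urea. Urea amidolyase, the biotin enzyme encoded by DUR1,2, turns urea into ammonium and carbon dioxide by way of allophanate. The enzyme and permease genes are known for a double control. The GATA activators Gln3 and Gat1 switch them on only when good nitrogen sources are scarce, against the GATA repressors Dal80 and Gzf3. In addition, allophanate induces several of them through Dal81 and Dal82.

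Libraries held between 26046702 and 33625232 estimated counts, more in IAA than in DMSO. Of the loci deleted in BY4741, LEU2, MET17 and URA3 had no count in any library, while HIS3 was present, at 1805 and 847 FPKM (the authors' length- and depth-scaled level) in DMSO and 2171 and 996 FPKM in IAA, higher in replicate 1 than in replicate 2 of both groups. Genes of the MATa mating type that defines the strain were expressed (STE2 at 330 to 379 FPKM, BAR1 and STE6 also present), but the a-factor genes MFA1 and MFA2 had at most 26 counts and were listed at 0 FPKM. Of the MATalpha genes, MF(ALPHA)1 had at most 6 counts and SAG1 lay at 23.3 to 25.8 FPKM. MF(ALPHA)2 lay at 7.22 to 10.85 FPKM and STE3 at 3.79 to 5.31 FPKM. ESS1 mRNA was 1.4-fold higher in IAA, which does not report the protein that the degron removes. Across all genes the tests called 28.7% of 5799 genes higher and 29.6% lower in IAA at an adjusted p under 0.05.

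Per gene length, the regulator genes DAL81 and DAL82 and the urea amidolyase gene were the most abundant members, and DAL3 and DAL80 the least. In DMSO, DAL81 had 52.5 and 53.2 FPKM and DAL82 had 37 and 35.9 FPKM. DUR1,2 followed with 23 and 23.5 FPKM. DAL2 had 11.8 and 13.1 FPKM, ahead of the allantoate permease gene DAL5 with 9.68 and 9.23 FPKM and the urea permease gene DUR3 with 9.43 and 9.36 FPKM. The ranges of DAL5 and DUR3 overlapped, so their order was not resolved, while every other pair of neighbours in the order was apart in both DMSO libraries. The allantoin permease gene DAL4 had 6.63 and 6.78 FPKM and DAL1 had 3.36 and 4.86 FPKM. DAL3 had 2.48 and 1.97 FPKM, and DAL80 had 0.78 and 1.23 FPKM. Among the tested genes, DAL81 stood at the 44.2 percentile of DMSO levels, DUR1,2 at the 17.6 percentile and DAL80 at the 0.587 percentile, and the enzyme and permease genes all lay at or below the 17.6 percentile.

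In IAA, DUR3 and DAL5 came apart, and DAL1 and DAL3 came to overlap. DUR3 had 14.7 and 14.3 FPKM there and lay above DAL5, at 12 and 12.3 FPKM. DAL1, at 4.01 and 4.21 FPKM, overlapped DAL3, at 4.27 and 3.5 FPKM. DUR1,2 had 32.3 and 29.1 FPKM, just under DAL82 at 32.9 and 34.1 FPKM.

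**Figure D1:**
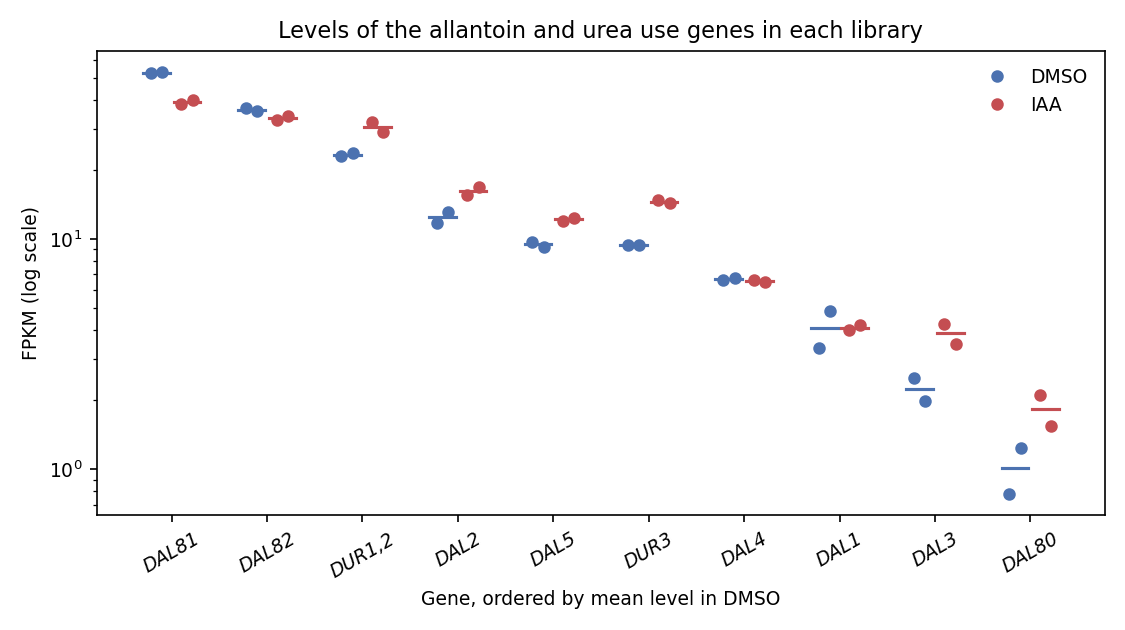
FPKM on a log axis for the 10 genes, ordered by their mean in DMSO, with 1 point per library and a line at the mean of each group (2 libraries). Levels run from 53.2 FPKM for DAL81 down to 0.78 FPKM for DAL80, and DUR3, DUR1,2, DAL2, DAL5, DAL3 and DAL80 have both IAA points above both DMSO points.

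Some of the members share a position or promoter letters, neither of which the choice by name used. DAL1, DAL4, DAL2 and DAL3 lie in a single cluster on the right arm of chromosome IX, from 406260 to 415617 in build R64, together with DCG1, a gene of uncertain role, and DAL7, a malate synthase gene of the same pathway. DAL81 lies on the same arm, from 399777 to 402689. The remaining members are spread over chromosomes II (DUR1,2, 636703 to 642210), VIII (DUR3, 72037 to 74244), X (DAL5, 719666 to 721297), XI (DAL80, 506898 to 507707) and XIV (DAL82, 44447 to 45214). The 300 bases before the start codon were searched on both strands for GATAAG, the core that GATA factors recognise. At least 1 copy stood in 14.7% of 6001 such windows of coding genes, at least 2 in 1.63% and at least 3 in 0.217%. DAL3 had 5 copies, DAL80 had 3, DAL2 had 2, and DAL4, DAL5, DAL81 and DAL82 had 1 each, while DAL1, DUR3 and DUR1,2 had none in this window. Of the other cluster genes, DAL7 had 3 and DCG1 had 2. In 600 bases, DUR1,2 had 5 copies, DAL5 had 3, DAL82 had 2 and DUR3 had 1. DAL1 and DAL4 had 4 each, in windows that overlap because the genes are divergent with 825 bp between them. The other genes kept their counts. At least 5 copies stood in 0.117% of 5999 windows of that length, at least 4 in 0.233% and at least 3 in 0.7%. At least 2 stood in 4.92% and at least 1 in 26.8%.

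Promoter windows that show this contrast were taken from the RefSeq R64 genome, 5′ to 3′ on the strand of the gene. Capitals mark GATAAG or its reverse complement CTTATC. DAL3 (chrIX:415618-415917, minus strand) and DAL80 (chrXI:506598-506897, plus strand) are shown as the members with the most copies near the start codon, DAL7 (chrIX:414680-414979, minus strand) and DCG1 (chrIX:412771-413070, minus strand) as neighbours in the cluster that moved in opposite directions, and DUR3 (chrVIII:74245-74544, minus strand) as a gene that rose without a copy in the window. Each of these holds bases 300 to 1 before the start codon. YKR032W lies 66 bp before DAL80 and DAL7 lies 244 bp before DCG1, so part of both windows lies in a neighbouring reading frame. The DAL80 copies, 290 to 222 bases before the start codon, stand further out than 66 bp. Those of DCG1, at 164 to 149, stand nearer than 244 bp. For DUR1,2 (chrII:642511-642810, minus strand) bases 600 to 301 are shown, where its copies stand. The gene next to it, YBR209W, starts 372 bp from DUR1,2, so part of that stretch lies in a neighbouring reading frame. The copies from 521 to 469 bases before the start codon stand further out than 372 bp. Only the copy at 324 to 319 stands nearer.
DAL3: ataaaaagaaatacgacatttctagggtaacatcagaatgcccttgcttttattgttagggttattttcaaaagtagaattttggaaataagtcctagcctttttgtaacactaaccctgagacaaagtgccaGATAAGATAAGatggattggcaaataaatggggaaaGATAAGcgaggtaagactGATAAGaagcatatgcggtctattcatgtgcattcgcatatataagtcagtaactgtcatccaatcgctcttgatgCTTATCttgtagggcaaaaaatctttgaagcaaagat
DAL80: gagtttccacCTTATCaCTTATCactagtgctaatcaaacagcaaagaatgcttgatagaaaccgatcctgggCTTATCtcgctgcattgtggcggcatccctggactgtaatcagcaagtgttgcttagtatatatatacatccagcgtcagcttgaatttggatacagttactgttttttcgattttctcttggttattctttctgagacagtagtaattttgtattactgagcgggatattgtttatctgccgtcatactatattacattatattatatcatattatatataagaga
DAL7: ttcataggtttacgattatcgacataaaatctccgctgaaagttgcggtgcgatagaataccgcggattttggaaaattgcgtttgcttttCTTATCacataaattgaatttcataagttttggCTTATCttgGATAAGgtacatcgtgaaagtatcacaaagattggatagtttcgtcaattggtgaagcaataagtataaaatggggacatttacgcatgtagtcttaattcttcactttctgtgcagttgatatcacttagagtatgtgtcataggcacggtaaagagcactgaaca
DCG1: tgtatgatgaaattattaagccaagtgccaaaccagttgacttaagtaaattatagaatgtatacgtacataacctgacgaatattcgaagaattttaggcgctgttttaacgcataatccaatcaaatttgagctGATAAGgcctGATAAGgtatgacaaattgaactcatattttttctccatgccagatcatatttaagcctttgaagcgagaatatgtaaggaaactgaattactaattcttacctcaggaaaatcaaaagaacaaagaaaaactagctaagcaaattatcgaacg
DUR3: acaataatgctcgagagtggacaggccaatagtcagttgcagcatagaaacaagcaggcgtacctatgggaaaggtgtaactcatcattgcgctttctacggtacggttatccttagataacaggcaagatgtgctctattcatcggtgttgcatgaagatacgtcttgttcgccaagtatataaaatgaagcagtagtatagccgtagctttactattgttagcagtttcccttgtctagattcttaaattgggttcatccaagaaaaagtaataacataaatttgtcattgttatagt
DUR1,2: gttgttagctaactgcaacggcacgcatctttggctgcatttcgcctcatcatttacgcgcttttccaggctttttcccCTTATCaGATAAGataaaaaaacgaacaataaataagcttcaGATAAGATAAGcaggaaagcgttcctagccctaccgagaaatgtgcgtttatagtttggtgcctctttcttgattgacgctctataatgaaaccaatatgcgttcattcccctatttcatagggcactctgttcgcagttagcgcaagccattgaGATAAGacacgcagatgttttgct
In DAL3 and in DUR1,2 a pair of copies shares 1 base (GATAAGATAAG). A match in these letters is a description of the sequence, and binding was not measured.

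After auxin, genes for the later steps of breakdown and for uptake of allantoate and urea were higher, and the gene of the activator Dal81 was lower. At an adjusted p under 0.05, 5 of the 10 members rose, against a background of 28.7% of all tested genes, and 1 fell, against 29.6%; over the alternatives 4 to 6 rose and 1 fell. The median log2 fold change of the 10 was 0.46, beside 0.00 (-0.00363) over all tested genes. In scaled counts, both IAA libraries lay above both DMSO libraries for 7 members (40.2% of all tested genes) and below them for 2 (41.3%). The groups overlapped for DAL1. DAL4, among the 7, overlapped in FPKM (6.63 and 6.78 in DMSO, 6.64 and 6.51 in IAA). All 10 passed the filter on low counts. Levels from here on are CPM (counts relative to library size, scaled with TMM), log2 fold changes are IAA against DMSO from edgeR's quasi-likelihood test, and adjusted p are Benjamini-Hochberg values over the 5799 tested genes. These are bulk cultures, in which fewer cells with a transcript and less of it per cell cannot be told apart.

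**Figure D2:**
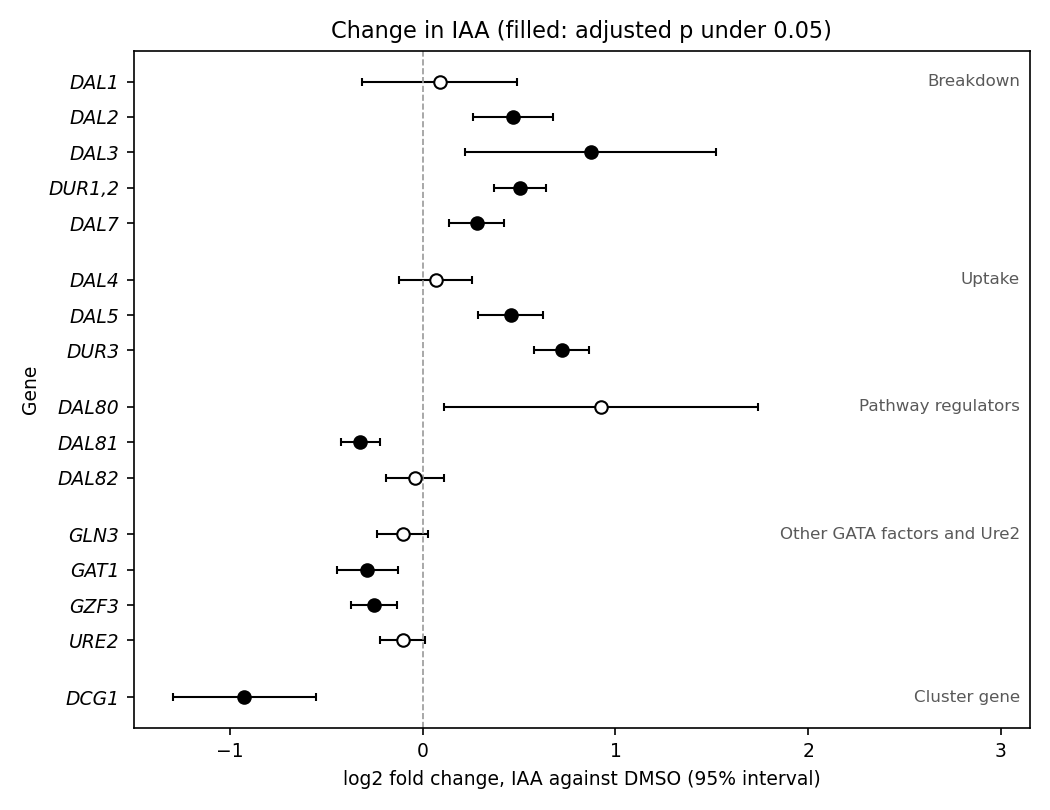
Log2 fold change in IAA against DMSO with its 95% interval for the 10 genes, DAL7, DCG1 and the other GATA regulators, grouped by role, from 2 libraries per group (filled points have an adjusted p under 0.05). DUR3 (0.72), DUR1,2 (0.50), DAL2 (0.47) and DAL5 (0.46) lie clear of 0 on the right, DAL81 (-0.32) and DCG1 (-0.93) on the left, and the intervals of DAL3 and DAL80 are wide.

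Among the enzymes, the gene of the first step did not pass the test and those of the later steps rose; the difference between them was not tested. DAL1, the allantoinase gene, had 3.78 and 5.45 CPM in DMSO and 4.84 and 5 CPM in IAA. The IAA values lay between the DMSO values, and the log2 fold change was 0.09 (95% interval -0.31 to 0.49, adjusted p = 0.686), an interval that reaches as far as the change of DAL2. DAL2, the allantoicase gene, had 9.25 and 10.2 CPM in DMSO and 13.1 and 13.9 CPM in IAA, with no overlap between groups. It rose 1.38-fold (log2 fold change 0.47, SE 0.091, adjusted p = 0.00263). DAL3, the ureidoglycolate lyase gene, is rare: 24 and 20 counts in DMSO and 52 and 42 counts in IAA, or 0.888 and 0.699 CPM against 1.61 and 1.29 CPM. It rose 1.83-fold (log2 fold change 0.87, SE 0.285, 95% interval 0.22 to 1.52, adjusted p = 0.0282). This call rests on few counts: it was lost with DESeq2 (adjusted p = 0.141) and without DMSO replicate 1, DMSO replicate 2 or IAA replicate 1 (adjusted p = 0.0685, 0.199 and 0.113), at log2 fold changes of 0.70 to 1.05. Over its 15 alternatives the adjusted p ran from 0.0163 to 0.199.

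The last enzyme of the route was the most abundant of the enzymes and rose as well. DUR1,2 had 117 and 119.9 CPM in DMSO and 178 and 159 CPM in IAA. Both IAA libraries were above both DMSO libraries, and the gene rose 1.42-fold (log2 fold change 0.50, SE 0.06, adjusted p = 0.000229). DAL7, which encodes a malate synthase able to use the glyoxylate released by Dal3, had 20.1 and 20.4 CPM in DMSO and 24.9 and 24.3 CPM in IAA, a smaller rise of 1.21-fold (log2 fold change 0.28, SE 0.0624, adjusted p = 0.00504). On FPKM values its adjusted p was 0.0507 on the log2(FPKM + 1) scale and 0.0523 on the log2(FPKM + 0.1) scale. A list of genes of glyoxylate metabolism and related steps held DAL7, MLS1, MDH2, AGX1, ICL1 and ICL2, not all of which use glyoxylate. It was chosen with earlier results of these data known. Of these 6 genes, 6 were called higher and 0 lower, with a median log2 fold change of 0.34, beside a background of 28.7% higher. ICL1, isocitrate lyase, rose 1.48-fold, MLS1, the other malate synthase gene, 1.5-fold, and MDH2, cytosolic malate dehydrogenase, 1.24-fold. With library size scaling 5 of the 6 were called higher, and with DESeq2 and on both FPKM scales 4, with 0 lower in each.

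Of the permease genes, those for urea and allantoate rose and that for allantoin did not pass. DUR3, a transporter of urea that also takes up polyamines, had 18.1 and 18 CPM in DMSO and 30.3 and 29.1 CPM in IAA. The replicates of each group were close together and far from the other group, and DUR3 rose 1.65-fold (log2 fold change 0.72, SE 0.0631, 95% interval 0.58 to 0.86, adjusted p = 6.09e-05). DAL5, the allantoate permease gene, had 13.2 and 12.6 CPM in DMSO and 17.6 and 17.8 CPM in IAA, again with no overlap, and rose 1.37-fold (log2 fold change 0.46, SE 0.0734, adjusted p = 0.00102). DAL4, the allantoin permease gene, had 10.8 and 11 CPM in DMSO and 11.6 and 11.3 CPM in IAA. Its log2 fold change was 0.07 (95% interval -0.12 to 0.26, adjusted p = 0.512). The upper bound of DAL4 lay below the estimates for DAL5 and DUR3, but the differences between the permease genes were not tested.

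Of the regulator genes of the pathway, 1 fell and the other two did not pass the test. DAL81, whose product is an activator of allantoin, urea, GABA and amino acid permease genes, had 136 and 138 CPM in DMSO and 108 and 111 CPM in IAA. The IAA libraries were lower with no overlap, and DAL81 fell 1.25-fold (log2 fold change -0.32, SE 0.0444, adjusted p = 0.000467). DAL82, the activator specific to the allantoin pathway, had 19.7 and 19 CPM in DMSO and 18.6 and 18.9 CPM in IAA, with a log2 fold change of -0.04 (95% interval -0.19 to 0.11, adjusted p = 0.606). DAL80, the GATA repressor whose gene is itself under nitrogen control, was the rarest member, with 12 and 20 counts in DMSO and 41 and 30 counts in IAA. Counting error alone gives exact Poisson 95% intervals of 6.2 to 21 and 12.2 to 30.9 counts in DMSO, and 29.4 to 55.6 and 20.2 to 42.8 counts in IAA. In CPM these are 0.444 and 0.699 against 1.27 and 0.921, a log2 fold change of 0.93 (95% interval 0.11 to 1.74) that just missed the threshold (adjusted p = 0.0521). It passed with limma-voom (adjusted p = 0.0396), without IAA replicate 2 (adjusted p = 0.0282) and with genes of fractional counts left out (adjusted p = 0.0357), in a range of 0.0282 to 0.315 over its alternatives.

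Among the other GATA regulators, GAT1 and GZF3 fell. GAT1, a GATA activator gene with 4 GATAAG copies in its own window, had 49.9 and 56 CPM in DMSO and 42.4 and 44.4 CPM in IAA and fell 1.22-fold (adjusted p = 0.00712, but 0.0586 without DMSO replicate 2). GZF3, a GATA repressor gene with 3 copies, went from 57.8 and 57.1 CPM to 48 and 48.3 CPM and fell 1.19-fold (adjusted p = 0.00332). GLN3, the other activator, had log2 fold change -0.10 (95% interval -0.24 to 0.03, adjusted p = 0.155), and URE2, which holds Gln3 in the cytoplasm on good nitrogen sources, -0.10 (95% interval -0.22 to 0.01, adjusted p = 0.105). Both were called lower with library size scaling (adjusted p = 0.0164 for GLN3 and 0.00919 for URE2), on both FPKM scales (0.0455 and 0.03 on log2(FPKM + 1), 0.0473 and 0.0302 on log2(FPKM + 0.1)) and without IAA replicate 2 (0.0429 and 0.0287). Of the 10 genes listed as GATA factors and their regulators, 3 rose and 2 fell, with a median log2 fold change of -0.04, shares near the background of 28.7% higher and 29.6% lower. The protein phosphatase gene SIT4 rose 1.28-fold and the kinase gene NPR1 1.17-fold. Library size scaling lowered the whole table, with 1131 genes higher and 2501 lower, and there the list had 1 higher and 5 lower, as on both FPKM scales. A list of 6 genes held the factors that act with Dal81 at other promoters (UGA3, STP1 and STP2) and the amino acid sensor that activates the Stp factors (SSY1, PTR3 and SSY5). Of these, 1 rose (SSY1, an amino acid sensor, 1.11-fold) and 2 fell (PTR3, of the same sensor, 1.2-fold, and the transcription factor gene STP1, 1.14-fold). The background is the same. SSY1 was not called with library size scaling, where 0 rose and 3 fell, nor with DESeq2, with no filter on low counts or on either FPKM scale, where 0 rose and 2 fell. It was not called without DMSO replicate 1, DMSO replicate 2 or IAA replicate 2 either.

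Within the chromosome IX cluster the genes did not change as a block. DCG1 had 4.78 and 5.49 CPM in DMSO and 2.98 and 2.42 CPM in IAA. It fell 1.9-fold (log2 fold change -0.93, SE 0.162, adjusted p = 0.00154), while DAL2 on one side and DAL7 on the other rose. DCG1 and DAL2 face each other tail to tail with 197 bp between their coding regions, and DCG1 and DAL7 run in the same direction with 244 bp between them. The libraries were made with a kit that keeps the strand, but no source used here states if the counting was stranded. The tail-to-tail reads of DAL2 and DCG1 may therefore be mixed. The same limit holds for DUR3 and YHL017W (162 bp apart) and for DUR1,2 and FTH1 (159 bp), which also lie tail to tail. It holds as well for DAL81 and INA22 (151 bp) and for DAL82 and EMW1 (93 bp). All members, DCG1 and DAL7 had whole-number counts in the 4 libraries, so no reads shared with other loci were seen for them. The genes flanking the cluster were YVH1, a phosphatase gene, which fell (log2 fold change -0.22, adjusted p = 0.00451), and MGA2, a transcription factor gene of lipid metabolism, at 0.00 (0.00498, adjusted p = 0.937).

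**Figure D3:**
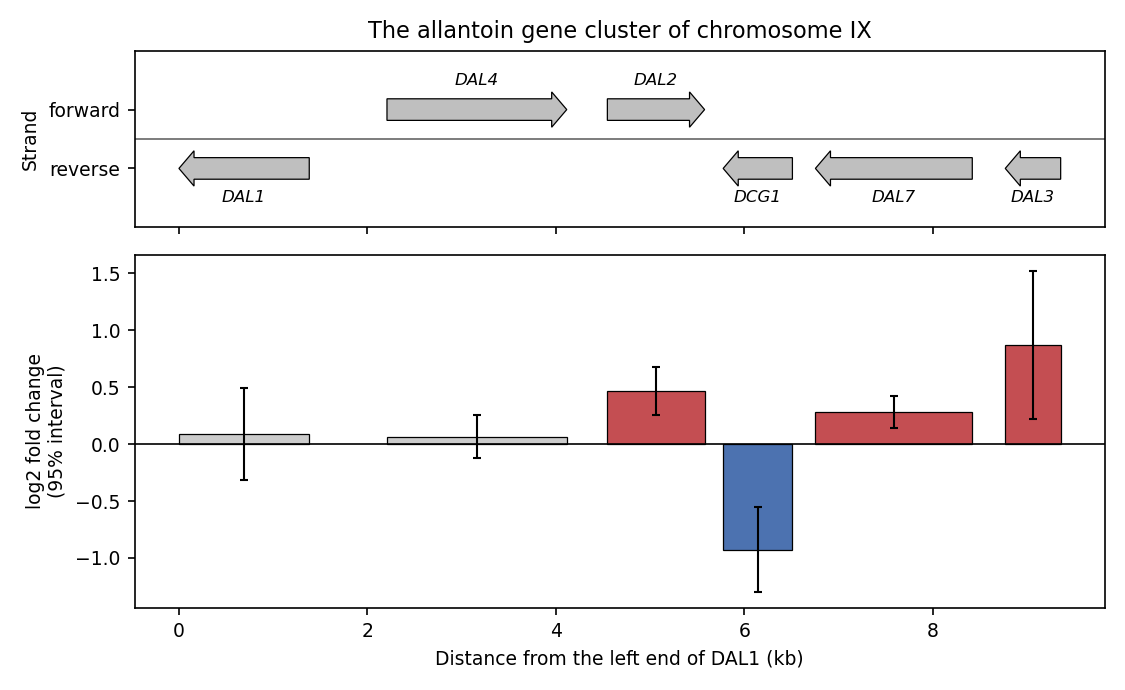
Map of the 6 cluster genes on chromosome IX, as arrows by strand against distance from the left end of DAL1 in kb, above their log2 fold change in IAA with the 95% interval (2 libraries per group; red higher, blue lower and grey not past the threshold). DCG1 (-0.93) stands between DAL2 (0.47) and DAL7 (0.28), and DAL1 and DAL4 are near 0.

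Neighbours of the other members moved in either direction. Both genes next to DAL81 fell, as DAL81 did: SEC11, of the signal peptidase, had log2 fold change -0.50 (SE 0.0543, adjusted p = 0.000154) and INA22, of mitochondrial ATP synthase assembly, -0.46 (SE 0.0727, adjusted p = 0.000942). Next to DUR3, YHL017W rose (0.37, adjusted p = 0.000248). DID2, an endosomal sorting gene beside DAL80, fell (-0.43, adjusted p = 0.000161), and EMW1 beside DAL82 fell (-0.16, adjusted p = 0.0246). FTH1 beside DUR1,2 (0.12, adjusted p = 0.0549), ATP11 beside DAL82 (-0.02, adjusted p = 0.796) and PGU1 beside DAL5 (-0.18, adjusted p = 0.124) did not pass. YBR209W, YJR151W-A, YHL015W-A and YKR032W had too few counts to be tested.

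Many other genes linked to nitrogen catabolite repression rose as well. Of a list of 26 such genes outside the 10, 15 rose and 0 fell, with a median log2 fold change of 0.32. Not every gene on the list need be under this control, GDH1, GDH3, GLT1 and PTR2 among them. Of these, GDH1 (log2 fold change 0.31) and GDH3 (0.48) were called higher, and GLT1 and PTR2 did not pass. The backgrounds were again 28.7% higher and 29.6% lower. The list was chosen with earlier results of these data known, so these shares are a description and not a test. With library size scaling 14 rose and 2 fell. GDH2, the glutamate dehydrogenase that releases ammonium, rose 1.9-fold from 173 ± 0.738 to 328 ± 8.3 CPM (mean ± SD, n = 2 each), CAR2, of arginine breakdown, 1.7-fold, DIP5, a dicarboxylic amino acid permease gene, 1.66-fold and AGP1, a broad amino acid permease gene, 1.66-fold (log2 fold change 0.73). The general amino acid permease gene GAP1, a common reporter of this control, was added to the named genes after its value was seen and had 40.2 and 41.3 CPM in DMSO and 42.7 and 43.9 CPM in IAA (log2 fold change 0.09, 95% interval -0.04 to 0.22, adjusted p = 0.204).

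Genes were also described by the number of GATAAG copies in the 300-base window, without a test, since the classes were set with the results known. Of 4874 tested genes with no copy, 27.7% were called higher and 30.5% lower. With 1 copy (743 genes) the shares were 31.4% and 26.6%, and with 2 copies (84 genes) 35.7% and 13.1%. Of the 13 genes with at least 3 copies, 7 were called higher and 2 lower. With the members, DCG1 and DAL7 set aside, 92 genes had at least 2 copies, of which 37% were called higher and 13% lower, with a median log2 fold change of 0.09. The 13 included DAL3, DAL80 and DAL7 and ran from GAT1 and GZF3, which fell, through CAN1, an arginine permease gene (log2 fold change 0.03), and GUD1, a guanine deaminase gene (0.60), to the polyubiquitin gene UBI4, which rose from 179 ± 5.97 to 402 ± 18.6 CPM (mean ± SD, n = 2 each; log2 fold change 1.17).

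**Figure D4:**
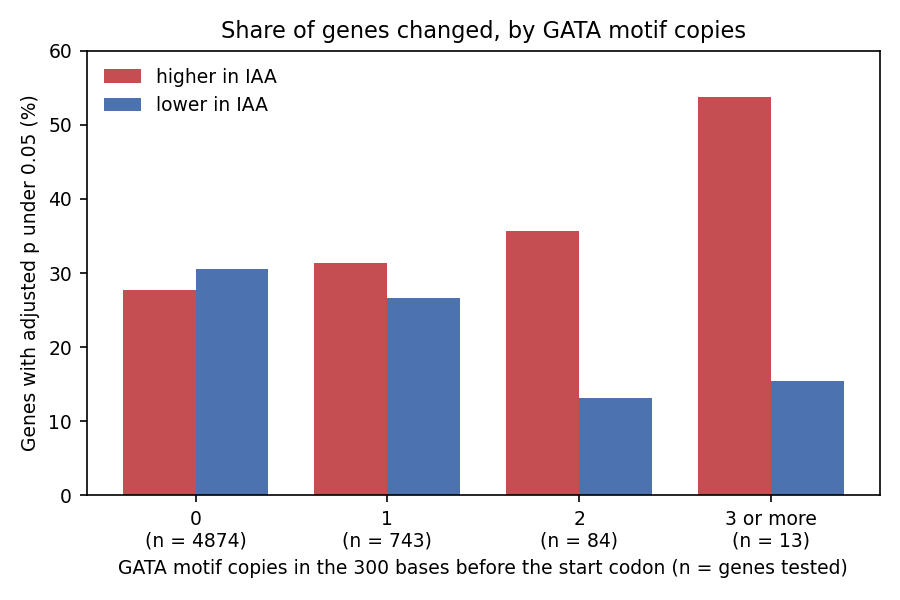
Percent of tested genes called higher (red) and lower (blue) in IAA at an adjusted p under 0.05, by the number of GATAAG copies in the 300 bases before the start codon. The share called lower goes from 30.5% with no copy to 13.1% with 2 copies, and the last class holds only 13 genes.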

How the data were processed

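The deposited estimated counts per gene need not be whole, and a second table holds FPKM values made by the authors. Per the submitters' processing notes, the tools included RSEM 1.3.3 and STAR 2.7.10a on build R64, beside SAMtools 1.10, Trimmomatic, FastQC 0.11.9 and DESeq2, with no role given. Per the labels' protocols, total RNA and a directional kit were used. Names came from RefSeq R64 (6456 of 6459 rows matched).

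Counts were rounded and tested in R 4.3.3 with edgeR 4.0.16 (filterByExpr, TMM, glmQLFit, glmQLFTest, no covariate, Benjamini-Hochberg, threshold 0.05). Intervals are 95%. SE is the log2 fold change over the square root of F. limma 3.58.1 and DESeq2 1.42.0 served as alternatives. FPKM alternatives used log2(FPKM + 1) and log2(FPKM + 0.1). Depth was 26046702 to 33625232 counts per library. With 2 libraries per group, p-values measure only the spread between libraries, with the variance of each gene estimated partly from other genes.

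Named genes were the 10 members, DCG1, DAL7, direct neighbours, 4 GATA regulators, ESS1 and up to 4 called genes per list with the lowest adjusted p. The members and lists were chosen with earlier results of these data known. GATAAG classes and their genes were added after seeing the data.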

Additional observations from a re-analysis of the deposited data

How the results depend on the processing

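Each result was recomputed under 15 alternatives (14 for DAL80, which had no value at a mean of at least 1 CPM). The calls of DAL2, DAL5, DUR3, DUR1,2, DAL81 and DCG1 kept their direction and side of the threshold under all of them, and 4 to 6 members were called higher with a library left out, where the lone library was taken to vary as the paired ones did. Library size scaling moved the median of all genes to -0.11 on the log2 scale and the share of calls that were higher from 49.3% to 31.1%, and on log2(FPKM + 1) it was 34.1%. The log2 fold change of DAL1 changed sign with library size scaling (-0.0164) and with a library left out ranged from -0.15 to 0.38, negative without DMSO replicate 1. That of DAL4 did so with library size scaling (-0.0375), log2(FPKM + 1) (-0.0245) and log2(FPKM + 0.1) (-0.0278), and neither gene was called in any setting. Called genes of polyamine transport numbered 2 with library size scaling and on both FPKM scales, against 5, and DCG1 and DAL7 gave 1 call on both FPKM scales, against 2. With a library left out, calls ranged from 3 to 8 among GATA factors and their regulators, from 1 to 4 among the partners of Dal81 and from 3 to 5 among transporters related to Dal4. The causes were not tested. With the replicate number as a block, DAL80 was called (log2 fold change 0.92, adjusted p = 0.0396), no member lost its call, and 1832 genes were called higher and 1876 lower. The labels do not say that the numbers pair cultures, and deviations of same-numbered libraries correlated at 0.239. HIS3 differed by replicate number in the same direction in both groups (1805 and 847 FPKM in DMSO, 2171 and 996 FPKM in IAA). Why it did so was not tested, and the main fit takes no account of the number. Depth limits DAL3 and DAL80, with 12 to 52 counts per library.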

Other observations

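Genes that share a cofactor, a protein family or a substrate with the members were also counted. These lists too were chosen with earlier results known, and the backgrounds are the same 28.7% higher and 29.6% lower. Urea amidolyase needs biotin, and of 11 genes for biotin enzymes and biotin supply 7 rose and 3 fell (5 and 3 with library size scaling). With DESeq2, 6 rose and 1 fell, so not all of the falls held there. The biotin synthesis genes BIO3 and BIO2 rose 1.87-fold and 1.52-fold, from 7.02 ± 0.286 and 29 ± 1.16 CPM (mean ± SD, n = 2), and ACC1, acetyl-CoA carboxylase, rose 1.28-fold. PYC1, pyruvate carboxylase, rose 1.57-fold but shares reads with other loci. The 3 that fell were ARC1 (log2 fold change -0.24), BIO5 (-0.18) and HFA1 (-0.14). Of 7 transporters related to Dal5, 3 rose and 0 fell, namely TNA1 for nicotinic acid (1.43-fold), YCT1 for cysteine (1.31-fold) and FEN2 for pantothenate (1.25-fold).

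Of 9 transporters related to Dal4, 3 rose and 0 fell, and with library size scaling 2 rose and 2 fell. FUI1, the uridine permease gene, rose 1.28-fold and TPN1, for pyridoxine, 1.14-fold, while THI72 (1.36-fold) shares reads. Dur3 also carries polyamines, and of 7 genes of polyamine uptake and export 5 rose and 0 fell (2 and 0 with library size scaling). AGP2, a plasma membrane regulator of polyamine and carnitine uptake, rose 1.56-fold, SAM3 1.18-fold and TPO5 1.18-fold, and TPO3, which shares reads, 1.27-fold.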
